A study of Mus musculus with 8 samples.

Results

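The Obox genes are a family of mouse homeobox genes whose RNA is found mainly in oocytes and early embryos. This account covers the 6 members Obox1, Obox2, Obox3, Obox5, Obox6 and Obox7, matched by gene symbol among 37310 genes in the count tables. RNA-seq counts came from 8 pools of 2-cell embryos of the C57BL/6N strain, of which 4 were wild-type and 4 carried knockout alleles of both Gadd45a and Gadd45b (double knockout, DKO). The DKO line was bred by interbreeding the single knockouts and crossing the double heterozygotes. Each pool held 23 to 35 embryos of 1 litter, taken 20 h after the vaginal plug from naturally mated females of 3 to 4 weeks. All of these females, wild-type and DKO, had been superovulated, and all embryos were collected in medium with hyaluronidase. The DKO embryos came from DKO females, the fathers' genotype is not described in the labels, and loss of the maternal supply cannot be told apart from loss of the embryo's own genes. A pool averages over its embryos, so fewer cells of a kind and less RNA per cell cannot be told apart.

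Homeobox genes encode transcription factors that bind DNA through a homeodomain. The Obox proteins have paired-like homeodomains related to those of Crx and Otx2, and the family is known for its part in switching on the embryonic genome at the 2-cell stage. Obox1, Obox2, Obox5 and Obox7 are known mainly as maternal transcripts that the oocyte supplies, and Obox3 as a transcript made by the embryo. Obox6 is a more divergent member, known from the preimplantation embryo and from work on reprogramming to pluripotency. The genes lie in a tandem cluster on chromosome 7 that also holds many pseudogene copies. GENCODE vM21 (GRCm38) lists 55 genes and pseudogenes whose symbol starts with Obox, 53 of them on chromosome 7. Of the 55, 8 had a row in the count tables: the 6 members, Obox4-ps35 and Obox3-ps8.

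The promoters show how alike the members are. RefSeq promoter windows on GRCm38.p6, from 250 bases before to 50 bases after the annotated start, matched 5 of the 6 members by symbol, and Obox6 had no entry. All 5 windows held the same run of 25 bases. To show the likeness base by base, each window is printed 5′ to 3′ on the gene's strand from 20 bases before this run to 30 bases past the annotated start, with the shared run in capitals. They are chr7:15547139-15547286 on the plus strand for Obox1, chr7:15388830-15388880 on the plus strand for Obox2, chr7:15639748-15639906 on the minus strand for Obox3, chr7:15750240-15750399 on the plus strand for Obox5 and chr7:14659604-14659737 on the plus strand for Obox7.
Obox1: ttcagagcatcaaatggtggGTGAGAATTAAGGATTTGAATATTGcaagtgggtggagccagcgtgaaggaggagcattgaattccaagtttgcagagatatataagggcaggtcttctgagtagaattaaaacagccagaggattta
Obox2: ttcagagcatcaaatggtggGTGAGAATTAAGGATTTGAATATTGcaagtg
Obox3: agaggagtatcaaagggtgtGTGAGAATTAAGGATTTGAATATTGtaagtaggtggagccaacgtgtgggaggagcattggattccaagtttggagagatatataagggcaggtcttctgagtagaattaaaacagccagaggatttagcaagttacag
Obox5: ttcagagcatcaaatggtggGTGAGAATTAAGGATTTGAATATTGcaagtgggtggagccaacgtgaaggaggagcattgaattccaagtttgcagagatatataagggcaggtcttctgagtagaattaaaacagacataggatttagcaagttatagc
Obox7: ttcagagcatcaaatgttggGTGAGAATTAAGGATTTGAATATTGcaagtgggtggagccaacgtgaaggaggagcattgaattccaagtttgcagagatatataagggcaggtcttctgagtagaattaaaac

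The run began 84 to 110 bases before the annotated start in Obox1, Obox3, Obox5 and Obox7, and 1 base before it in Obox2, so the Obox2 window ends soon after the run. In whole windows, Obox1 matched Obox5 at 91.7% and Obox7 at 89.3% of the 300 positions, and Obox5 matched Obox7 at 88.7%. Obox3 matched these 3 at 65.3% to 73.0%. These shares count unaligned positions as not matching, and the Obox2 start lies at another place relative to the shared run, so its windows aligned over fewer bases. Obox1 and Obox2 matched at all 203 aligned bases, which is 67.7% of the window. Obox2 and Obox3 matched at 117 of 187 aligned bases, or 39.0% of the window. Against 10 other homeobox genes the 5 windows matched at 28.3% to 50.7%, with a median of 45.7% over 50 pairs aligned in the same way. The letters TATATAAG, a form of TATA box chosen after the windows were seen, occurred in 4 of the 5 windows, all but that of Obox2, and in 1.01% of all 32851 promoters searched on both strands. It began 5 bases before the annotated start in Obox7, 19 in Obox1, 30 in Obox3 and 31 in Obox5. In these 4 windows it lies within a stretch of 42 bases common to them, so the 4 occurrences are not independent. The Obox2 window ends before the matching place. TATAAA occurred in 1 of 5 (Obox3), against 13.6% of all promoters. TAATCC, the core bound by Otx-type homeodomains, occurred in 1 of 5 (Obox3), against 7.06% of all promoters. TAATTG, a site bound by the oocyte factor Nobox, occurred in 0 of 5, against 8.00%.

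**Figure D1:**
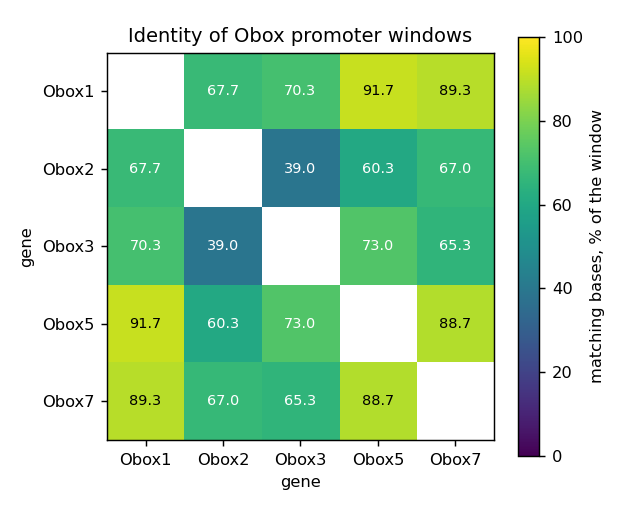
Matching bases between RefSeq promoter windows of 5 Obox genes, in % of the 300-base window; both axes list the genes and the colour scale runs from 0 to 100. Obox1, Obox5 and Obox7 match each other at 88.7% to 91.7%, and the values of Obox2 (39.0% to 67.7%) are held down by the offset of its start, since unaligned positions count as not matching.

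Sequence shared between transcripts limits how well reads of some members can be told apart, chiefly those of Obox1 and Obox2. Reads were 85 bases long, and in GENCODE vM21 transcripts 45.2% of the distinct 85-base stretches of Obox1 and 50.4% of those of Obox2 occurred in the other gene. The share found in any other gene was 10.7% in Obox3, mostly with the pseudogene Obox3-ps3. It was 4.19% in Obox7 and 3.67% in Obox5, which share 67 stretches with each other, and 0.556% in Obox6. Obox1 and Obox5, whose promoter windows were the most alike, shared 0% of these stretches. The Obox1 annotation also overlaps 9 other genes, Obox2 on the same strand and Obox3 on the opposite strand among them. Obox5, Obox6 and Obox7 overlap none. Whether the stretches shared by Obox1 and Obox2 lie in exons annotated to both genes was not examined. How the authors treated strand and reads with several matches is not described in the labels. The separate values of Obox1 and Obox2 are therefore uncertain, and those of Obox3 to a lesser degree. These shares and overlaps are of GENCODE vM21, a later annotation than that of the counts, and were not computed on the latter.

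The libraries held 21329736 to 23919114 counts each. Gadd45b, the targeted stress-response gene, was at 36.1 to 62.3 CPM (counts per 1000000 counts of the library, scaled by TMM) in the wild-type pools and 0.0442 to 0.615 CPM in the DKO pools, with no overlap between genotypes. Gadd45a, the other target, was at 15.7 to 22.4 CPM in wild-type and 7.21 to 10.8 CPM in DKO, and the labels do not describe the deleted part of this allele. The 2-cell markers Zscan4d (164 to 302 CPM) and Zfp352 (233 to 495 CPM) and the oocyte markers Nlrp5 (96.3 to 142 CPM) and Zp3 (116 to 185 CPM) were present in every pool. Of 12 cumulus and granulosa cell markers 4 (Ptx3, Amh, Inhba and Foxl2) had 0 counts in all libraries, and their summed level was 13.4 to 16.8 CPM in wild-type and 11.3 to 21.2 in DKO. The 6 sperm markers summed to 0.518 to 1.47 CPM in wild-type and 1.11 to 2.37 in DKO, with none at 0 in all libraries.

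The Obox genes were abundant at this stage. The 6 members took 0.389% ± 0.0361 of all counts in wild-type pools against 0.442% ± 0.0496 in DKO pools (SD, n = 4 each). By pool this share was 0.380%, 0.379%, 0.440% and 0.355% in wild-type replicates 1 to 4 and 0.475%, 0.386%, 0.491% and 0.414% in DKO replicates 1 to 4. The genotypes overlapped, since wild-type replicate 3 exceeded DKO replicates 2 and 4.

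Obox6 and Obox5 together made up most of this RNA. Per kb of exon, a scale that allows genes to be compared, Obox6 had the highest mean level over the 8 pools (1093 CPM per kb, from 584 to 1580), followed by Obox5 (731, from 330 to 1233). These neighbours overlapped, and Obox6 was above Obox5 in 6 of 8 pools. Obox3 came next at 199 CPM per kb (156 to 244), below every value of Obox5. Obox1 had 138 CPM per kb (86.9 to 208) and overlapped Obox3, and Obox2 had 88.8 (59.8 to 104) and overlapped Obox1. Obox7 was lowest at 45.5 CPM per kb (32.3 to 59.5), and its highest pool was below the lowest pool of Obox2. The lengths are of GENCODE vM21, a later annotation than that of the counts. With the longest protein-coding transcript as length the order was the same, but Obox3 stood at 321 CPM per kb and the ranges of Obox3 and Obox5 overlapped.

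**Figure D2:**
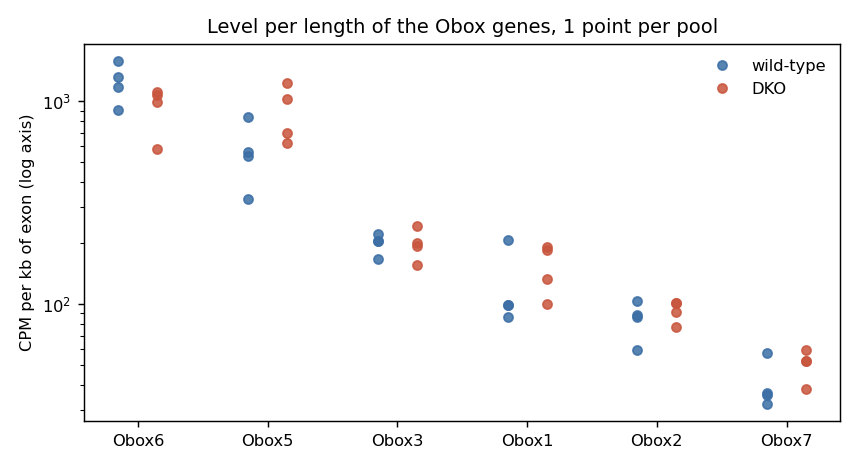
Level per length of the 6 Obox genes in CPM per kb of exon on a log axis, 1 point per pool, wild-type in blue and DKO in red, with genes ordered by mean. Obox6 and Obox5 lie above the others, from 330 to 1580 CPM per kb, and Obox7 lies lowest, from 32.3 to 59.5.

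The comparison of DKO with wild-type asked whether loss of Gadd45a and Gadd45b changed these genes. No Obox gene passed adjustment over all genes in edgeR's quasi-likelihood test: 0 of the 6 members were called. Of 14970 genes tested 4 were called (0.0267%), 1 of them higher in DKO (0.00668%) and 3 lower (0.02%). DESeq2 also called 0 of the 6, against 49 of 18543 genes (0.264%). The edgeR test did not call the target Gadd45a either, although all 4 of its DKO pools lay below all 4 wild-type pools. Its log2 fold change was −1.09 ± 0.22 (standard error, adjusted p = 0.303 in edgeR and 0.00085 in DESeq2). A member that was not called is therefore not shown to be unchanged. At an unadjusted edgeR p under 0.05 the count was 1 of 6, Obox5, against 10.2% of all genes. In 0 of 6 members did all 4 DKO pools lie on 1 side of all 4 wild-type pools, against 5.34% of all genes. The log2 fold change (DKO minus wild-type) was positive in 4 members and negative in 2, with a median of 0.22, against 51.2% positive and a median of 0.01 over all genes tested.

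Among the maternal members, Obox5 had the largest difference of the 6. It stood at 1199, 1144, 1787 and 706 CPM in wild-type replicates 1 to 4 and at 2633, 1329, 2204 and 1487 CPM in DKO replicates 1 to 4. The highest values were those of DKO replicates 1 and 3, but wild-type replicate 3 lay above DKO replicates 2 and 4, so the genotypes overlapped. The means were 1209 ± 444 CPM in wild-type pools against 1913 ± 613 CPM in DKO pools (SD, n = 4 each). DKO minus wild-type, the log2 difference was 0.66 ± 0.26 (standard error; adjusted p = 0.469 in edgeR), a 1.58-fold difference with a 95% interval of 1.07 to 2.34 before adjustment for the number of genes. Leaving out DKO replicate 1 gave 0.46 and leaving out wild-type replicate 3 gave 0.90.

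Obox1 followed a similar order of pools. It had 188, 189, 395 and 165 CPM in wild-type replicates 1 to 4 and 365, 252, 351 and 190 CPM in DKO replicates 1 to 4. The highest pool of all 8 was wild-type replicate 3, far above the other wild-type pools. This gave a log2 fold change of 0.30 ± 0.27 (standard error; adjusted p = 0.677 in edgeR), with a 95% interval of −0.27 to 0.88, and it depended on single pools. It was 0.67 without wild-type replicate 3 and 0.46 without DKO replicate 4, but 0.17 when DKO replicate 1 was left out and 0.16 when wild-type replicate 4 was.

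Obox2 shares 50.4% of its distinct 85-base stretches with Obox1, whose annotation overlaps it on the same strand. Obox2 had 143, 170, 145 and 98.4 CPM in wild-type replicates 1 to 4 and 168, 127, 167 and 151 CPM in DKO replicates 1 to 4. Here wild-type replicate 2 was the highest pool and wild-type replicate 4 the lowest, and the 4 DKO pools lay between them. The log2 fold change was 0.14 ± 0.17 (standard error; adjusted p = 0.774 in edgeR), with a 95% interval of −0.23 to 0.51. Without wild-type replicate 4 it was −0.0016. Because reads of Obox1 and Obox2 are hard to assign, their sum is also given: 374 ± 118 CPM in wild-type pools against 442 ± 96.7 CPM in DKO pools (SD, n = 4 each), again overlapping.

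Obox7 was the least abundant member per length. It had 58.2, 57.4, 92.0 and 51.7 CPM in wild-type replicates 1 to 4 and 83.6, 84.2, 95.3 and 61.1 CPM in DKO replicates 1 to 4. Wild-type replicate 3 stood among the DKO pools, and the other wild-type pools lay below all 4 of them. The log2 fold change was 0.32 ± 0.20 (standard error; adjusted p = 0.56 in edgeR), with a 95% interval of −0.11 to 0.75. Leaving out wild-type replicate 3 gave 0.53.

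Obox3, known as a product of the embryonic genome, showed nearly equal means. It had 531, 654, 704 and 652 CPM in wild-type replicates 1 to 4 and 499, 620, 636 and 777 CPM in DKO replicates 1 to 4. Both the lowest and the highest pool were DKO, replicates 1 and 4, so the wild-type range lay inside the DKO range. Obox3 gave a log2 fold change of −0.0053 ± 0.16 (standard error; adjusted p = 0.994 in edgeR), with a 95% interval of −0.35 to 0.34, and its sign depended on the setting. In fold terms the interval ran from 0.784 to 1.27. Obox4-ps35, annotated as an Obox4 pseudogene, had 66.7 to 109 CPM in DKO and 75.9 to 106 CPM in wild-type, with a log2 fold change of 0.03 ± 0.19 (standard error; adjusted p = 0.967 in edgeR). Obox3-ps8 had at most 5 counts in a library and was not tested.

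Obox6 was lower on average in DKO, the only member besides Obox3 with a negative fold change. It stood at 1766, 1590, 1213 and 2124 CPM in wild-type replicates 1 to 4 and at 785, 1451, 1338 and 1489 CPM in DKO replicates 1 to 4. DKO replicate 1 was the lowest pool and wild-type replicate 4 the highest, and wild-type replicate 3 lay below DKO replicates 2, 3 and 4. The means were 1673 ± 379 CPM in wild-type pools against 1266 ± 327 CPM in DKO pools (SD, n = 4 each). For Obox6 the log2 fold change was −0.40 ± 0.21 (standard error; adjusted p = 0.506 in edgeR), with a 95% interval of −0.86 to 0.05. Leaving out DKO replicate 1 gave −0.24 and leaving out wild-type replicate 4 gave −0.27.

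**Figure D3:**
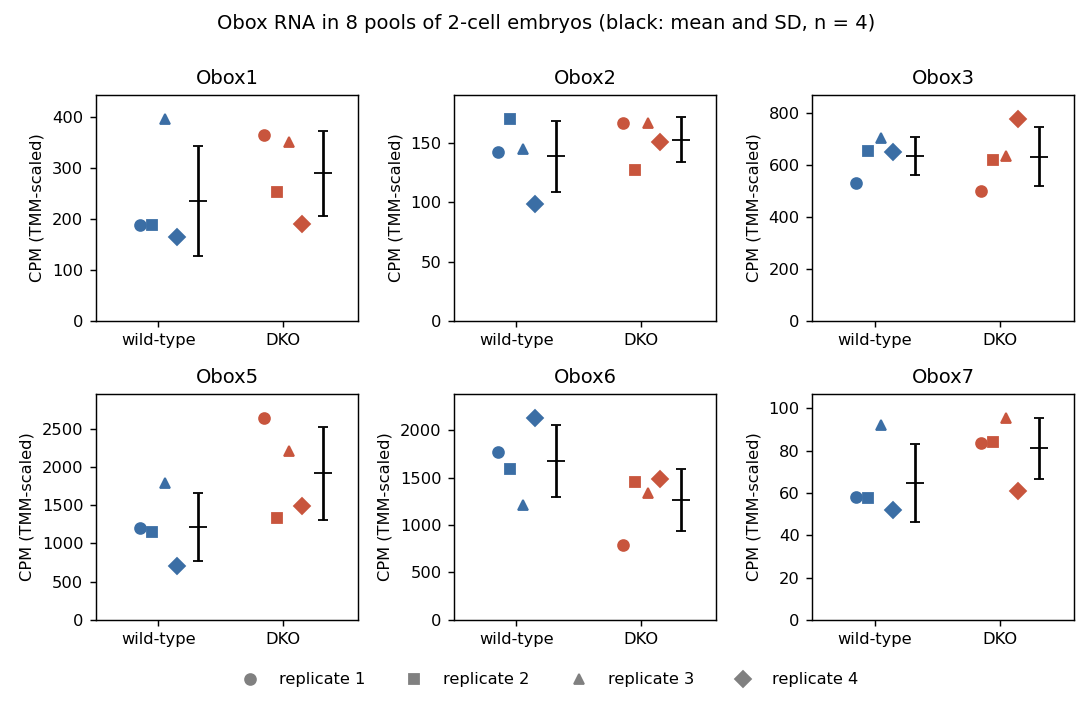
CPM of the 6 Obox genes in each pool (y axis from 0, scaled separately per gene), wild-type in blue and DKO in red, with a marker shape per replicate number and the mean ± SD (n = 4) in black. The genotypes overlap for all 6 genes, and wild-type replicate 3 (triangle) lies at DKO levels for Obox1 (395 CPM), Obox5 (1787 CPM) and Obox7 (92.0 CPM).

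**Figure D4:**
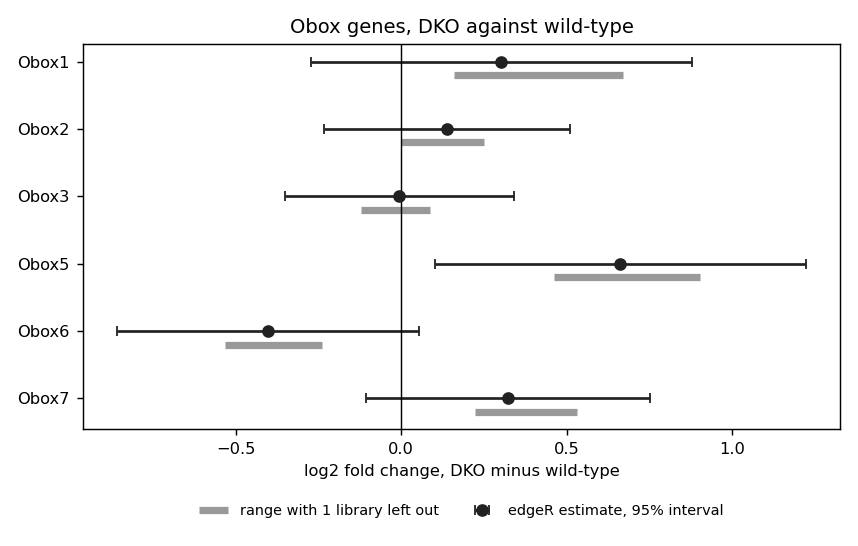
Log2 fold change, DKO minus wild-type, of the 6 Obox genes (points) with the 95% interval of the edgeR fit (thin bars) and the range of the estimate with 1 library left out (grey bars). The interval of Obox5 (0.10 to 1.22) lies above 0 before adjustment for the number of genes, and those of the other 5 include 0.

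The differences among pools of the same genotype were large for these genes and did not run the same way in all members. The 3 pools with most Obox5 were DKO replicates 1 and 3 and wild-type replicate 3. The same 3 pools were highest for Obox1 and lowest for Obox6. The 3 pools with least Obox5, wild-type replicates 1, 2 and 4, were also the lowest for Obox1 and Obox7 and the highest for Obox6. Wild-type replicate 4 was the lowest pool for Obox1, Obox2, Obox5 and Obox7 and the highest for Obox6. Obox3 did not share this order.

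The make-up of the Obox RNA shifted from pool to pool more than its total. Obox5 took 18.6% of the members' counts in wild-type replicate 4 and 58.1% in DKO replicate 1, and Obox6 took 55.9% and 17.3% in the same pools. The ratio of Obox5 to Obox6 CPM was 0.679, 0.720, 1.47 and 0.332 in wild-type replicates 1 to 4 and 3.36, 0.916, 1.65 and 0.999 in DKO replicates 1 to 4. On the log2 scale this ratio was −0.52 ± 0.88 in wild-type pools against 0.58 ± 0.86 in DKO pools (SD, n = 4 each), with overlap through wild-type replicate 3. The summed CPM of the 6 members, in contrast, ranged only from 3797 to 4791.

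**Figure D5:**
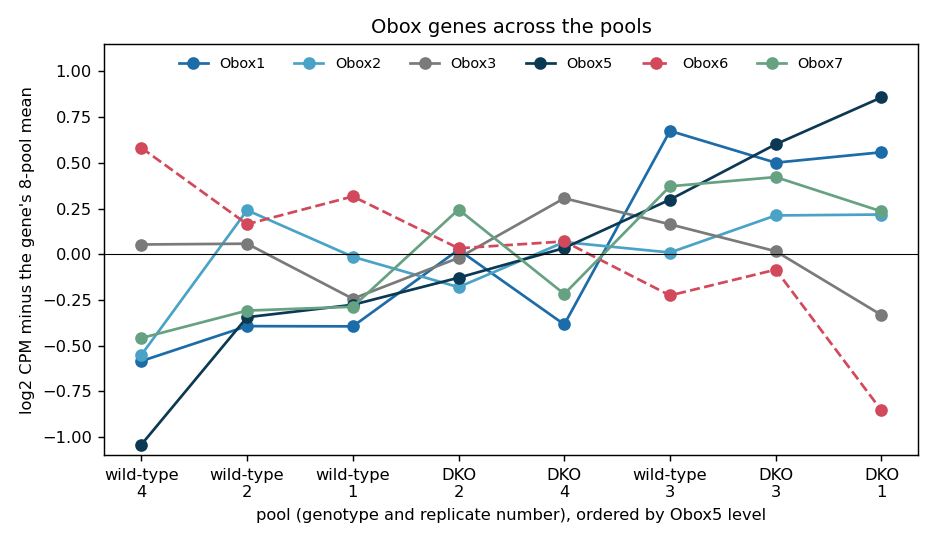
Log2 CPM of each Obox gene minus its mean over the 8 pools (y axis), with pools ordered from left to right by Obox5 level. Obox1, Obox5 and Obox7 are lowest in wild-type replicate 4 and high in the 3 pools at the right, whereas Obox6 (dashed) runs the other way, from 2124 CPM at the left to 785 CPM at the right.

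Members differed in how much the pools of a genotype varied. The SD of log2 CPM within a genotype was 0.51 for Obox1 and 0.51 for Obox5, 0.39 for Obox6, 0.32 for Obox7, 0.27 for Obox2 and 0.22 for Obox3. For 3627 genes with a mean of at least 50 CPM the median was 0.24, and the range from the 5th to the 95th percentile was 0.11 to 0.43. Obox1 and Obox5 were above the 95th percentile of these genes, Obox2, Obox6 and Obox7 lay between the median and that percentile, and Obox3 was below the median. The comparison genes were not matched to the levels of the members.

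The highest pools for a list of oocyte transcripts were the 3 with most Obox5 and most Obox1, but not the 3 with most Obox2 or Obox7. The mean log2 CPM of 19 tested genes such as Zp3, Gdf9 and Btg4 was highest in DKO replicate 1 (7.64), DKO replicate 3 (7.25) and wild-type replicate 3 (7.17), and lowest in wild-type replicate 4 (6.71). Wild-type replicate 2, the highest pool for Obox2, stood at 6.82, and DKO replicate 2, among the highest 3 for Obox7, at 6.93. For 19 transcripts of the 2-cell stage the mean was highest in wild-type replicate 3 (5.92) and lowest in wild-type replicate 4 (5.20), with DKO replicate 1 at 5.49. DKO replicate 1 also had the lowest quality weight of the 8 libraries in limma-voom (0.365), and the part of these pool differences in the Obox values was not tested.

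Gene by gene, the transcript whose profile over the 8 pools was most like that of Obox5 was Btg4, an adaptor that recruits deadenylase to maternal RNA. It had 2487, 2121, 3367 and 1441 CPM in wild-type replicates 1 to 4 and 5899, 2795, 4481 and 3157 CPM in DKO replicates 1 to 4, the same order of pools as Obox5 (Pearson's r of log2 CPM 0.99, Spearman's rho 1, 8 pools). Tbl1xr1 and Il7 came next, both with r of 0.98. For Obox6 the nearest were Bag5 (r = 0.996), Riox2 (0.995) and Tpx2 (0.993). Bag5, a co-chaperone of HSP70, ran from 87.7 CPM in DKO replicate 1 to 148 CPM in wild-type replicate 4. For the summed CPM of the 6 members they were Hspa2, Klf10, Capn12, Mgat4c and Katnbl1 (r of 0.94 to 0.95). Hspa2, a heat shock protein of the HSP70 family, had 12.4 to 26.3 CPM in wild-type and 17.2 to 39.5 CPM in DKO. These genes are the best of 10194 searched, the 8 points share library depth and scaling, and the r values are descriptions without a test. The searches for Obox5 and Obox6 were added after the values were seen.

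Other genes around the Obox family were compared in the same fit, and 0 were called in each list. Of 16 related or early homeobox genes 13 were matched and 10 tested, with 5 positive and 5 negative and a median log2 fold change of 0.03; Dux, Lhx8 and Tprx1 were not matched. The member with the smallest p was Crxos, a homeobox gene that lies 42.9 kb beyond Obox6 on chromosome 7 (GRCm38), with Crx between them. Crxos had 600, 561, 561 and 929 CPM in wild-type replicates 1 to 4 and 369, 552, 482 and 518 CPM in DKO replicates 1 to 4. All 4 DKO pools lay below all 4 wild-type pools, by a narrow margin, as 5.34% of all genes tested did in either direction, and the log2 fold change was −0.47 ± 0.19 (standard error; adjusted p = 0.471 in edgeR). Without wild-type replicate 4 it was −0.26. As with Obox6, the lowest Crxos pool was DKO replicate 1 and its highest wild-type replicate 4. Nobox, an oocyte homeobox factor, had 10.7 to 16.3 CPM in wild-type and 11.3 to 17.5 CPM in DKO (log2 fold change 0.10 ± 0.22, standard error; adjusted p = 0.884 in edgeR).

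Among 27 genes of the 2-cell stage 19 were matched and tested, with 13 positive and a median log2 fold change of 0.15. Zscan4d, a telomere regulator of this stage, had a log2 fold change of 0.10 ± 0.20 and Zfp352, a zinc finger gene, 0.37 ± 0.18 (standard error; adjusted p = 0.867 and 0.489 in edgeR). Without DKO replicate 3, the highest pool for both, these values were −0.085 and 0.20. Tdpoz4 had the smallest p of this list, at 25.1 to 36.5 CPM in wild-type and 10.1 to 22.5 CPM in DKO (log2 fold change −0.88 ± 0.26, standard error; adjusted p = 0.469 in edgeR). Of 19 other activators of the embryonic genome 7 were positive, with a median of −0.06. Nfya, a subunit of the CCAAT-binding factor NF-Y, had 55.1 to 104 CPM in wild-type and 47.4 to 71.9 CPM in DKO (log2 fold change −0.50 ± 0.20, standard error; adjusted p = 0.471 in edgeR). The log2 fold change of Dppa2, an activator of 2-cell genes, was −0.57 ± 0.26 (standard error; adjusted p = 0.48 in edgeR). Like Obox6, Dppa2 was lowest in DKO replicate 1 (207 CPM) and highest in wild-type replicate 4 (782 CPM), and without the latter its log2 fold change was −0.34.

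Among the 19 oocyte transcripts tested, 17 had a positive fold change, against 51.2% of all genes tested, and the median log2 value was 0.27. Of the 19, 6 reached an unadjusted edgeR p under 0.05, all in the positive direction. Over all genes tested 10.2% did so in either direction, and 867 of 14970 in the positive one. Genotypes did not overlap in 2 of the 19, against 5.34% of all genes. The genes may vary together across pools, so these counts cannot be taken as independent. Their mean log2 CPM overlapped between genotypes: wild-type replicate 3 (7.17) lay above DKO replicates 2 (6.93) and 4 (7.15). The highest mean was in DKO replicate 1 (7.64), the library of lowest quality weight. Omt2b, an oocyte transcript with the smallest p of the list, had 1720 to 2845 CPM in wild-type and 3078 to 5088 CPM in DKO (log2 fold change 0.74 ± 0.20, standard error; adjusted p = 0.469 in edgeR). With 1 library left out this value ranged from 0.53 (without DKO replicate 1) to 0.88 (without wild-type replicate 3).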

How the data were processed

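For each library the authors deposited raw counts, whole numbers by Ensembl gene. STAR 2.5.2b, featureCounts 1.5.1, NCBIM37 and mm9 are named in the submitters' processing notes. Per the labels' protocols, cDNA and libraries were each amplified in 11 PCR cycles and sequenced as single reads of 85 cycles, with no molecular identifiers described. SDs come from the spread between pools. SEs and intervals come from the edgeR fit, which draws each gene's spread between pools toward that of other genes. They therefore do not rest on the pools of that gene alone. Symbols were matched for 32620 of 37310 identifiers. The main test was that of edgeR 4.0.16 under R 4.3.3 (filterByExpr, TMM, robust quasi-likelihood test, Benjamini-Hochberg over the 14970 genes left, threshold 0.05) over all 8 libraries without covariates. Log2 CPM used a prior count of 2. Intervals of fold changes are at 95% from the same fit. Pools are separate litters, and every pair within a genotype differed beyond sampling noise (chi-square over its degrees of freedom at least 22.2). Promoter windows were aligned end to end with free end gaps. Alternatives were DESeq2 1.42.0, limma-voom (limma 3.58.1) with quality weights, other scalings, no filter, a replicate block, embryos per pool as covariate and each library left out. The fit was tested on simulated data.

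The members and lists were chosen with earlier results of these data known. Genes named are the members, other Obox rows, the member of each list with the smallest p, Zscan4d, Zfp352, Nobox, Dppa2, the targets, and the 5 genes most like the summed members in Pearson's r, among genes whose log2 CPM averaged 1 or more and whose symbol is no placeholder. Btg4, Tbl1xr1, Il7, Bag5, Riox2 and Tpx2 were named after their values were seen. In the cumulus list Cyp19a1 (log2 fold change 0.45, edgeR adjusted p = 0.688) and in the sperm list Odf1 (0.67, edgeR adjusted p = 0.71) had the smallest p. Without DKO replicate 1 these were 0.090 and 0.24, and without wild-type replicate 1 Odf1 was at 0.39.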

Additional observations from a re-analysis of the deposited data

Results flagged for a closer look

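Of 52 groups of 4 values checked, 5 held a pool far from the other 3 by Dixon's criterion, where chance gives about 1 in 20. In wild-type, replicate 3 stood apart for Obox1 at 395 CPM, with the other pools at 165 to 189 CPM, and for Obox7 at 92.0 CPM, with the others at 51.7 to 58.2 CPM. Wild-type replicate 4 stood apart for Crxos at 929 CPM, with the others at 561 to 600 CPM. In DKO, replicate 1 stood apart for Omt2b at 5088 CPM, with the others at 3078 to 3311 CPM, and replicate 3 for Zfp352 at 495 CPM, with the others at 316 to 344 CPM.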

How the results depend on the processing

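Under 16 alternative settings 0 of the 6 Obox members were called, and 0 genes of the 4 other lists of homeobox genes, 2-cell genes, activators and oocyte transcripts. The count over all genes was 7 with no filter on low counts and 49 with DESeq2, against 4, and 4 with any 1 library left out. Obox1, Obox5, Obox6 and Obox7 kept their sign in all 16 settings, with log2 fold changes of 0.16 to 0.67, 0.46 to 0.90, −0.53 to −0.24 and 0.22 to 0.53. Obox2 ranged from −0.0016 to 0.249 with 1 library left out and was negative only without wild-type replicate 4. Obox3 turned positive with library size alone (0.043), with limma-voom (0.024) and with 5 libraries left out in turn, ranging from −0.12 to 0.086 over the libraries left out. Obox4-ps35 turned with embryos per pool as covariate (−0.092) and ranged from −0.098 to 0.137 with 1 library left out. Nobox turned with limma-voom (−0.062) and ranged from −0.0097 to 0.202 with 1 library left out, negative when DKO replicate 4 or wild-type replicate 4 was absent. Zscan4d ranged from −0.085 to 0.267, negative when DKO replicate 3 or wild-type replicate 4 was absent. Same-numbered pools of the genotypes correlated weakly in their deviations from the genotype mean (0.00235 to 0.078). Of the 4 DKO pools, 2 correlated best with their own number. These low values cannot settle whether the numbers pair the pools, and the main fit did not pair them. With a replicate block 0 members and 4 genes in all were called, and Obox5 had a log2 fold change of 0.68 and Obox6 of −0.42. All 8 Obox rows summed into 1 row gave a log2 fold change of 0.13 ± 0.14 (SE). Adjusted p values of Obox5 ranged from 0.281 to 0.883 over the settings, and of Obox6 from 0.309 to 0.899. With 4 pools per genotype and the spread of these genes, differences of the size seen for Obox5 were not resolved after adjustment over all genes.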
